A study of Mus musculus with 12 samples.

Results

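The collagen genes examined here were the 44 rows of a mouse kidney expression table, out of 27179, whose NCBI Gene number belongs to a protein-coding gene with a collagen chain symbol. By collagen type they comprised 9 fibrillar genes (types I, II, III, V and XI), 8 basement membrane genes (types IV, XV and XVIII) and 27 others. RNA of whole kidneys was sequenced in 12 libraries, 3 in each of 4 groups, at 37202089 to 82947410 reads per library. Wild-type animals, and animals labelled γGT1-Cre;Fan1-/- (FAN1KO), received saline or cisplatin, a DNA crosslinking drug that injures the proximal tubule. Cisplatin was given into the peritoneum at 2 mg/kg once a week for 5 weeks. In every group the mice were 8 to 12 weeks old and of mixed strain background. Fan1 encodes a nuclease of DNA crosslink repair, and by the study's methods the Ggt1-driven Cre removes it in proximal tubule cells. Fibroblasts, endothelial cells and podocytes, which make much of the kidney's collagen, are not its target. Fan1 RNA stood at 3.80, 3.35 and 1.98 TPM in wild-type and 1.17, 1.54 and 2.28 TPM in FAN1KO kidneys after saline, and at 2.33, 3.57 and 3.32 TPM in wild-type and 2.72, 3.51 and 1.55 TPM in FAN1KO kidneys under cisplatin. The genotypes overlapped under both treatments, with log2 differences of −0.59 ± 0.27 and −0.21 ± 0.27 (SE, adjusted p = 0.593 and 0.604 by limma), so these values do not separate the genotype labels.

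Collagens are built of 3 chains wound into a triple helix, which needs a glycine at the third residue of each repeat. Fibrillar collagens form the cables of the interstitial matrix and are the main product of fibroblasts and myofibroblasts in a scarring kidney. Type IV collagen forms the sheets of basement membranes. Col4a1 and Col4a2 encode the chains found in nearly all basement membranes. Col4a3, Col4a4 and Col4a5 encode those of the glomerular filter, and Col4a5 with Col4a6 those of the capsule around it. Types XV and XVIII link basement membranes to the matrix beside them, and the C-terminal fragment of the Col18a1 protein is endostatin. The groups were compared to ask whether collagen RNA differed with genotype, with cisplatin, and with both together.

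The glycine repeat appears in the coding sequence as a GG-led codon at the start of each unit of 9 bases, and its longest unbroken run is longest in the fibrillar genes. All 44 genes had a coding sequence in the GENCODE annotation of GRCm38, and a block was counted where at least 5 units followed each other without a break. In the fibrillar genes the longest block ran from 337 units in Col5a3 to 344 in Col3a1. Among the 6 type IV genes it ran from 39 units in Col4a3 to 66 in Col4a2, with the repeat split into 22 to 27 blocks. Col18a1 had 16 blocks, the longest of 30 units, and Col27a1, grouped with the others here, had a longest block of 217 units. Basement membrane genes lay within the range of the others, 23 to 217 units. The 3 stretches that follow hold the feature that sets fibrillar and type IV chains apart, with the first bases of every in-frame glycine codon in capitals. The first is the start of the long block of Col1a1 (chr11:94939451-94939939, plus strand, exons 6 to 8, introns left out). The other 2 hold the last 45 bases of the longest block and the 45 coding bases after it, from Col4a3 (chr1:82651299-82653354, plus strand, exons 7 to 9) and Col4a5 (chrX:141669666-141673354, plus strand, exons 47 to 48). The capitals are evenly spaced in Col1a1, and the spacing breaks in the middle of the other 2.
Col1a1: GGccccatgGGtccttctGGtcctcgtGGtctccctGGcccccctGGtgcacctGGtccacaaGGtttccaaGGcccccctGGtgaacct
Col4a3: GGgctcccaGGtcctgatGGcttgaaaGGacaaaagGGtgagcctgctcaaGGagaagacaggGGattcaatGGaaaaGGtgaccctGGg
Col4a5: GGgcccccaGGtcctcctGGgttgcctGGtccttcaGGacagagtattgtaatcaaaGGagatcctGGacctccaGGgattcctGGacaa

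The 6 type IV genes lie in 3 pairs whose members are read away from each other. By their RefSeq spans on GRCm38.p6, Col4a1 and Col4a2 overlap by 85 bases on chromosome 8 and Col4a3 and Col4a4 by 114 on chromosome 1, while Col4a5 and Col4a6 lie 1274 bases apart on chromosome X. Bases before a start of Col4a6 and Col4a5 are shown because both genes rose in the results that follow. They were taken from the RefSeq promoter windows, which hold 1 start for each of these genes, leaving out bases inside a GENCODE exon. For Col4a6 250 bases are given (chrX:141474077-141474326, minus strand), and for Col4a5 216 bases (chrX:141475169-141475384, plus strand). Of these the last 19 and 15 lie inside the longer RefSeq spans. Capitals mark a match on either strand to the letters TATAAA of a TATA box, CCAAT of a CCAAT box, GGGCGG of a GC box or TGACTCA of an AP-1 site.
Col4a6: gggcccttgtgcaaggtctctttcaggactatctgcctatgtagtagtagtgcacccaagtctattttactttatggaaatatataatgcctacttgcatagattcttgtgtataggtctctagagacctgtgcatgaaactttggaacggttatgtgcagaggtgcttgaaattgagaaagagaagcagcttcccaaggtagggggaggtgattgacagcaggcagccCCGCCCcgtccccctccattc
Col4a5: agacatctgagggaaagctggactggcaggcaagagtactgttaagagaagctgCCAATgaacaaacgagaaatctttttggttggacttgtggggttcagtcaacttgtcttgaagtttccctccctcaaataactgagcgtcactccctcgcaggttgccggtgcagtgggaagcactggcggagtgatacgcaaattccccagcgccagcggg
Col4a6 held 1 GC box match, on the reverse strand and 21 bases before the start that the window uses. Col4a5 held 1 CCAAT box match, 196 bases before the start its window uses, and a GC box match among the exon bases that are not printed. Of 32851 promoter windows of 250 bases, 12.4% held the TATA box letters on either strand, 33.8% the CCAAT box, 32.7% the GC box and 4.46% the AP-1 site.

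RNA was measured as TPM, the reads of a gene per base of its length, scaled to the same total in every library, so levels can be compared between genes. Over the 12 libraries Col18a1 had the highest mean level, 108 TPM. It was followed by Col4a1 at 67.4, Col4a2 at 48.5, Col4a4 at 36.4 and Col4a3 at 35.6 TPM. This order did not hold in every group. In wild-type saline kidneys Col4a3 and Col4a4 had means of 40.1 and 37.6 TPM, above Col4a2 at 35.1 TPM. In FAN1KO cisplatin kidneys the mean of Col4a3 was 19.1 TPM. Basement membrane genes made up 63.6% to 82.6% of all collagen TPM in a library, and fibrillar genes 5.78% to 16.7%. The most abundant fibrillar genes were Col1a2, Col3a1 and Col1a1, with mean levels of 13.3, 13.2 and 11.7 TPM. In the remaining class Col27a1, a fibril-forming collagen of cartilage, led at 21.6 TPM. Col6a2, a chain of type VI beaded filaments, followed at 7.79 TPM, and Col14a1, which sits on the surface of fibrils, at 7.09 TPM.

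Of the 44 genes 29 reached at least 1 TPM in at least 3 libraries and were tested, all 8 of the basement membrane class, 6 fibrillar genes and 15 others. The 15 that did not were Col2a1, Col11a1 and Col11a2 of the fibrillar class, and Col6a4, Col6a5, Col8a2, Col9a1, Col9a2, Col9a3, Col10a1, Col19a1, Col22a1, Col24a1, Col25a1 and Col28a1. Col9a1 was listed at 0 in all 12 libraries. The highest single value among the 15 was 1.24 TPM, of Col11a2 in the first FAN1KO cisplatin library. Markers of cartilage and bone, the tissues known for types II, IX, X and XI, summed to 0.241 to 2.97 TPM over 5 genes. Of the tested genes, Col4a6 and Col17a1 reached 1 TPM in FAN1KO cisplatin kidneys alone, so they entered through the group in which they were high and had to differ.

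One library in each group held RNA of 4 genes of the Y chromosome, and the other 8 held almost none. They were the third wild-type and the first FAN1KO library after saline, and the first wild-type and the third FAN1KO library after cisplatin. Some of the collagen results that move with this RNA are also given from the 8 libraries without it, an alternative chosen after seeing the data. The labels do not say that the 3 libraries of a group are separate mice, so p-values measure only the spread between these samples. In bulk tissue fewer cells of a type and less RNA per cell cannot be told apart. Between the cisplatin groups the kidneys also differed in tubule markers. The 4 injured proximal tubule markers summed to 778 to 1155 TPM in FAN1KO and 32.8 to 148 TPM in wild-type kidneys, and all 4 were called higher by limma, although Krt20 passed the filter through the FAN1KO cisplatin kidneys. The 6 proximal tubule markers summed to 1513 to 3029 and 3725 to 5551 TPM, and 4 of them were called lower. The part of these shifts in the collagen results was not tested.

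Under cisplatin, FAN1KO kidneys held more RNA of 5 collagen genes than wild-type kidneys and less of 2. Col18a1, Col4a5 and Col4a6 of the basement membrane class were higher, as were Col17a1 and Col26a1 among the others, and Col4a3 and Col27a1 were lower. None of the 6 fibrillar genes tested passed the threshold. By limma with Benjamini-Hochberg adjustment over the 14972 genes tested, 17.2% of the 29 collagen genes were called higher, beside 19.6% of all genes tested. Lower calls made up 6.9% of the 29, beside 4.37%. The share of collagen genes called was thus near the background. Without Col4a6 and Col17a1, 3 of 27 were higher and 2 lower. The median log2 difference was 0.12 over the 29 genes and 0.24 over all genes. Median-ratio scaling brought the latter to −0.0085 and took the share of higher genes among all calls from 81.8% to 54.6%, and the same 7 collagen genes were called in the same directions.

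**Figure D1:**
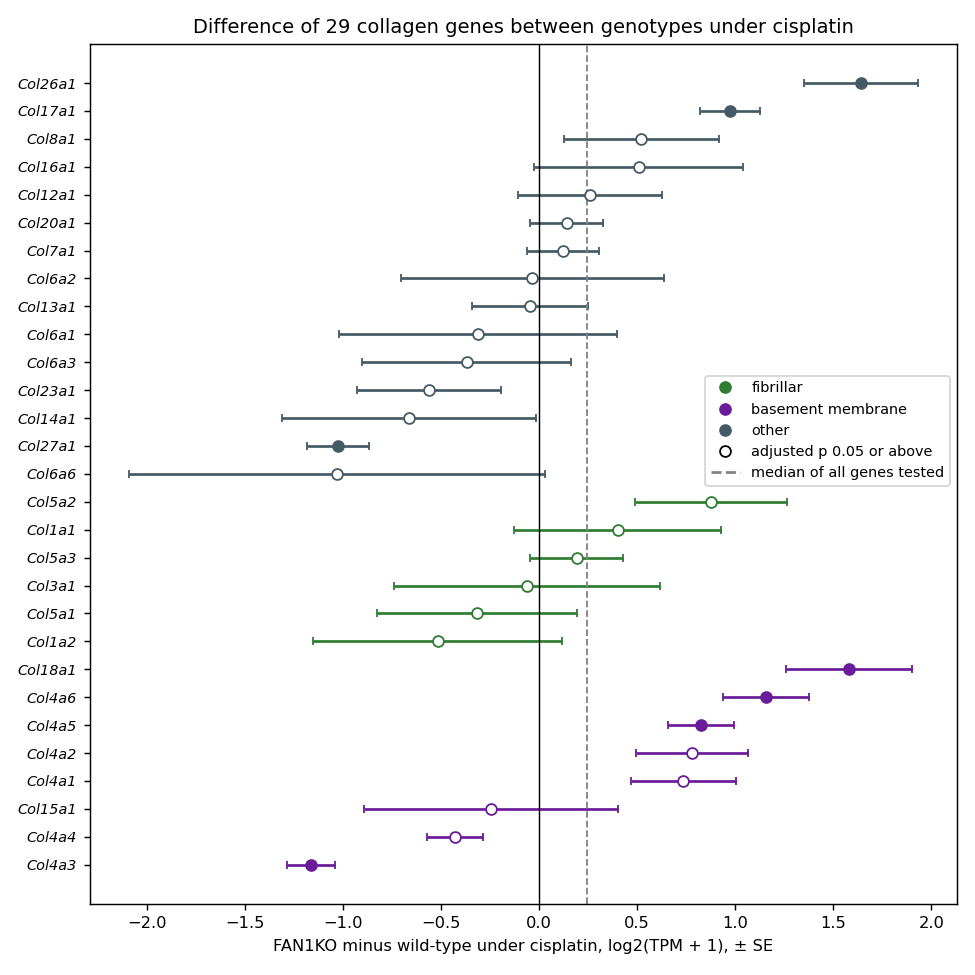
Differences between FAN1KO and wild-type kidneys under cisplatin for the 29 collagen genes tested, on the log2(TPM + 1) scale with their standard errors, by class. Filled points have an adjusted p under 0.05, and the dashed line is the median of all genes tested. No fibrillar gene is filled, and the basement membrane genes run from −1.16 in Col4a3 to 1.58 in Col18a1.

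Col18a1 (chr10:77052178-77166530) showed the largest difference of the basement membrane genes on the log2(TPM + 1) scale. Its level was 272, 238 and 196 TPM in FAN1KO cisplatin kidneys and 47.7, 103 and 94.3 TPM in wild-type cisplatin kidneys. After saline it was 61.3, 66.8 and 38.3 TPM in wild-type and 41.5, 71.5 and 72.0 TPM in FAN1KO kidneys. All 3 FAN1KO cisplatin values lay above every other library, and within each group the library with Y-linked RNA was the lowest. The log2 difference between genotypes under cisplatin was 1.58 ± 0.32 (SE, adjusted p = 0.00719) by limma. Between cisplatin and saline in FAN1KO kidneys it was 1.95 ± 0.32 (SE, adjusted p = 0.00142). Col18a1 alone supplied 37.5% to 39.2% of all collagen TPM in FAN1KO cisplatin kidneys and 14.9% to 20.9% in the other 9. The related Col15a1 overlapped between genotypes, at 12.7, 8.84 and 6.01 TPM in FAN1KO and 3.70, 20.2 and 14.8 TPM in wild-type cisplatin kidneys, and at 1.85, 9.24 and 7.20 TPM in FAN1KO and 8.96, 9.19 and 2.70 TPM in wild-type kidneys after saline. Under cisplatin its log2 difference was −0.24 ± 0.65 (SE, adjusted p = 0.809) by limma, and in the 8 libraries without Y-linked RNA −0.65, which was called lower (adjusted p = 0.0461).

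**Figure D2:**
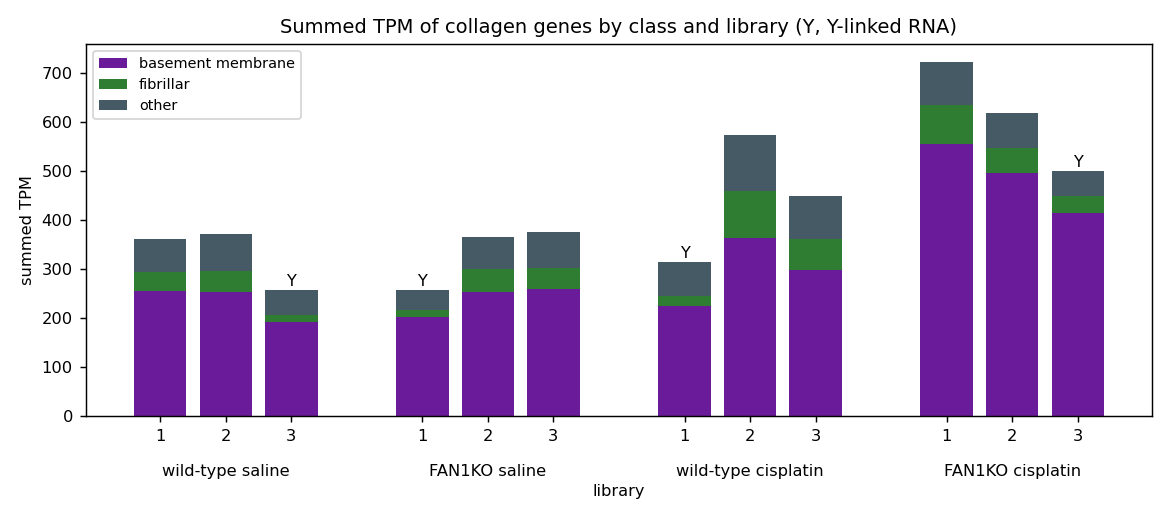
Summed TPM of the 44 collagen genes in each library (bars stacked by class; Y marks libraries with Y-linked RNA). The basement membrane sum was 414 to 557 TPM in FAN1KO cisplatin kidneys and 193 to 365 TPM in the other 9 libraries, while the fibrillar sums of the groups overlap.

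Among the type IV genes Col4a3 was lower in FAN1KO than in wild-type cisplatin kidneys. Col4a3 (chr1:82586921-82722059) stood at 19.2, 19.7 and 18.4 TPM in FAN1KO cisplatin kidneys and at 48.5, 45.7 and 38.4 TPM in wild-type cisplatin kidneys. After saline it stood at 43.3, 40.1 and 36.9 TPM in wild-type and 44.8, 34.6 and 37.2 TPM in FAN1KO kidneys. Every FAN1KO cisplatin kidney was far below the 9 others, which overlapped. The log2 difference between genotypes was −1.16 ± 0.12 (SE, adjusted p = 0.000350) under cisplatin by limma, and −0.049 ± 0.12 after saline, which was not called. Some of its exon bases, 563 or 5.6%, are shared with C430014B12Rik on the opposite strand, and whether counting used strand is not given in the sources used here.

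Its neighbour Col4a4 (chr1:82448419-82587034) stood at 28.3, 30.4 and 30.1 TPM in FAN1KO and 46.8, 38.1 and 36.2 TPM in wild-type cisplatin kidneys. After saline it stood at 45.5, 33.0 and 35.6 TPM in FAN1KO and 35.4, 34.4 and 43.0 TPM in wild-type kidneys. The cisplatin groups did not overlap, but the difference of −0.43 ± 0.14 was not called by limma (adjusted p = 0.0529). It was called in the 8 libraries without Y-linked RNA (adjusted p = 0.0242), without the first FAN1KO saline library (adjusted p = 0.0317) and without the third wild-type saline library (adjusted p = 0.0450). Podocytes are the known glomerular source of both chains. The 5 podocyte markers summed to 216, 80.6 and 38.7 TPM in FAN1KO and 64.5, 178 and 136 TPM in wild-type cisplatin kidneys, overlapping groups with none of the 5 called. Their part in the result was not tested.

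Col4a5 and Col4a6 were both higher in FAN1KO cisplatin kidneys. Col4a5 (chrX:141475370-141689236) stood at 14.3, 14.4 and 10.7 TPM there, at 6.64, 6.85 and 7.21 TPM in wild-type cisplatin kidneys and at 5.69 to 8.79 TPM after saline. Its log2 difference between genotypes under cisplatin was 0.83 ± 0.17 (SE, adjusted p = 0.00705) by limma. Col4a6 (chrX:141165403-141474095) stood at 2.59, 2.29 and 1.38 TPM in FAN1KO and 0.173, 0.504 and 0.432 TPM in wild-type kidneys, and at 0.124 to 0.621 TPM after saline. In both genes the FAN1KO cisplatin kidneys lay above the other 9, and the library with Y-linked RNA was the lowest of its group. For Col4a6, with 24 to 132 reads in each of those 9 libraries, the difference of 1.16 ± 0.22 (SE, adjusted p = 0.00526) on the log2(TPM + 1) scale understates the change of a low gene. Col4a6 passed the filter through FAN1KO cisplatin kidneys alone and had to differ, so this p-value decides nothing. Its means were 2.08 ± 0.630 and 0.370 ± 0.174 TPM (SD, n = 3). After saline neither gene was called between genotypes, with log2 differences of 0.13 and 0.0082.

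Col4a1 and Col4a2, the chains of the common network, had higher values in FAN1KO cisplatin kidneys but missed the threshold. Col4a1 (chr8:11198423-11312889) stood at 119, 104 and 92.5 TPM in FAN1KO and 43.6, 88.5 and 62.7 TPM in wild-type cisplatin kidneys, and at 33.9, 54.4 and 56.4 TPM in FAN1KO and 57.5, 57.2 and 39.5 TPM in wild-type kidneys after saline. Col4a2 (chr8:11312805-11449287) stood at 88.8, 80.2 and 58.8 TPM in FAN1KO and 28.8, 62.5 and 44.5 TPM in wild-type kidneys, and at 28.1, 42.1 and 43.2 TPM in FAN1KO and 40.1, 38.7 and 26.5 TPM in wild-type kidneys after saline. The cisplatin groups of Col4a1 did not overlap, whereas those of Col4a2 did. The log2 differences were 0.74 ± 0.27 and 0.78 ± 0.29 (adjusted p = 0.0698 and 0.0704 by limma). In the 8 libraries without Y-linked RNA both were called (adjusted p = 0.0278 and 0.0144), as they were without the second wild-type cisplatin library (adjusted p = 0.0284 and 0.0295). Col4a1 was also called without the first FAN1KO saline library (adjusted p = 0.0475). Other fits that leave 1 library out took Col4a1 and Col4a2 down to 0.48 and 0.50, with adjusted p up to 0.241 and 0.243. Under median-ratio scaling they had 0.45 and 0.50 and were not called (adjusted p = 0.0913 and 0.0849).

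**Figure D3:**
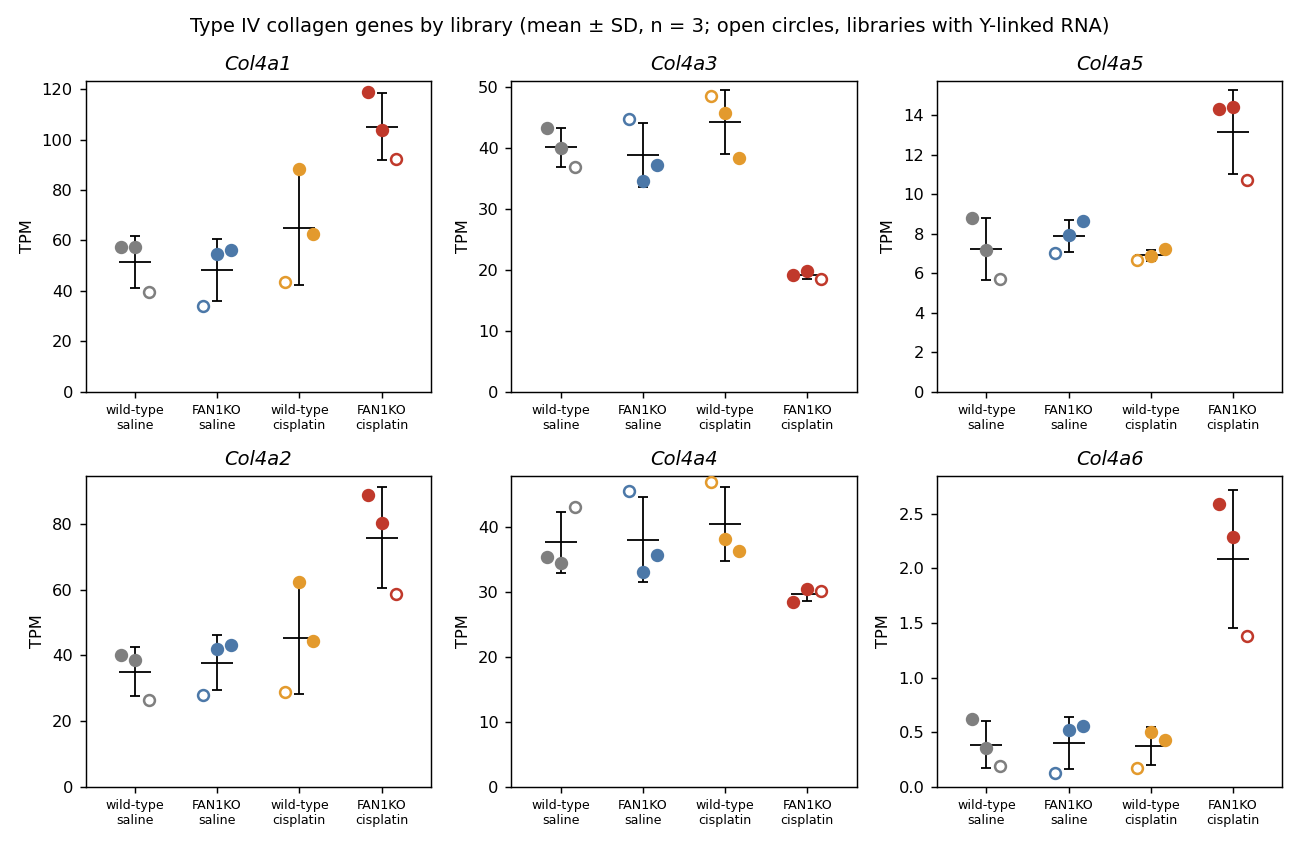
TPM of the 6 type IV collagen genes in each library, by group, with the mean and SD of 3 libraries; open circles are libraries with Y-linked RNA. Col4a3 lies at 18.4 to 19.7 TPM in the 3 FAN1KO cisplatin kidneys, below the other 9, while Col4a5 and Col4a6 lie above them.

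The balance of the type IV chains differed with these changes, given as a description of ratios computed after the single genes had been seen. Col4a1 RNA was 5.02 to 6.20 times that of Col4a3 in FAN1KO cisplatin kidneys and 0.758 to 1.94 times in the other 9. Col4a3 RNA was 0.613 to 0.677 times that of Col4a4, against 0.858 to 1.22 times. Both ratios separate the FAN1KO cisplatin kidneys from the rest with no overlap. The ratio of Col4a1 to Col4a2, whose chains join in 1 molecule, stayed between 1.21 and 1.57 in all 12 libraries.

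None of the 6 fibrillar genes tested was called between genotypes in the fit of the 4 group means without a covariate, under cisplatin or after saline. Col1a1 and Col1a2 encode the chains of type I collagen, and Col3a1 that of type III. Col1a1 (chr11:94936224-94953042) stood at 24.4, 17.6 and 12.1 TPM in FAN1KO and 4.96, 25.2 and 16.2 TPM in wild-type cisplatin kidneys. After saline it was at 3.56, 8.45 and 7.96 TPM in FAN1KO and 8.42, 8.24 and 3.48 TPM in wild-type kidneys. The FAN1KO cisplatin range lay inside the wild-type one, and the lowest value of every group came from the library with Y-linked RNA. The log2 difference between genotypes under cisplatin was 0.40 ± 0.53 (SE, adjusted p = 0.612) by limma. For cisplatin against saline in FAN1KO kidneys it was 1.33 ± 0.53 (SE, adjusted p = 0.0671), which also missed the threshold. It passed in the 8 libraries without Y-linked RNA (1.24, adjusted p = 0.00331), and without the first or the second wild-type cisplatin library (adjusted p = 0.0205 and 0.0491). In those 8 libraries the Col1a1 difference between genotypes under cisplatin was 0.034 (adjusted p = 0.917).

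Col1a2 (chr6:4505618-4541543) stood at 18.5, 9.86 and 6.19 TPM in FAN1KO and 5.89, 30.1 and 19.8 TPM in wild-type cisplatin kidneys, and at 4.77, 18.7 and 14.7 TPM in FAN1KO and 12.1, 13.4 and 5.08 TPM in wild-type kidneys after saline. Col3a1 (chr1:45311538-45349706) stood at 25.5, 11.5 and 10.8 TPM in FAN1KO and 5.55, 29.3 and 21.4 TPM in wild-type kidneys under cisplatin, and at 2.44, 10.5 and 10.2 TPM in FAN1KO and 13.2, 14.3 and 4.03 TPM in wild-type kidneys after saline. All these groups overlap between genotypes. The log2 differences under cisplatin were −0.52 ± 0.63 for Col1a2 and −0.063 ± 0.68 for Col3a1 (adjusted p = 0.584 and 0.955 by limma). Standard errors of this size leave room for differences in either direction. In the 8 libraries without Y-linked RNA the differences were −0.81 and −0.52, neither called (adjusted p = 0.0693 and 0.237). For cisplatin against saline in FAN1KO kidneys, the fit of all libraries gave −0.080 ± 0.63 for Col1a2 and 1.05 ± 0.68 for Col3a1. Neither was called (adjusted p = 0.931 and 0.237 by limma).

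The 2 chains of type I collagen did not keep a constant ratio. Col1a1 RNA was 1.32, 1.78 and 1.95 times that of Col1a2 in FAN1KO cisplatin kidneys and 0.843, 0.837 and 0.816 times in wild-type cisplatin kidneys. In the 6 saline kidneys it was 0.451 to 0.745 times. These 3 sets do not overlap, and in 3 of the 4 groups the library with Y-linked RNA had the highest ratio. The ratio was picked after its values were seen and carries no test.

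**Figure D4:**
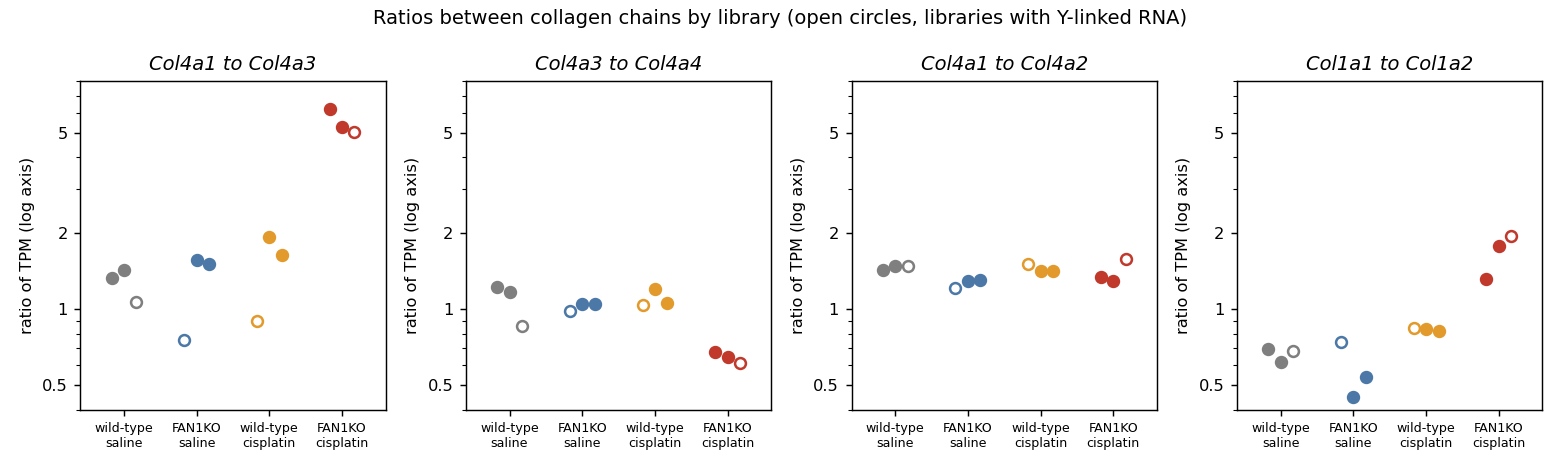
Ratio of TPM between 2 collagen chains in each library, on log axes, by group; open circles are libraries with Y-linked RNA. The FAN1KO cisplatin kidneys lie at 5.02 to 6.20 for Col4a1 to Col4a3, 0.613 to 0.677 for Col4a3 to Col4a4 and 1.32 to 1.95 for Col1a1 to Col1a2, apart from the other 9 in each.

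Type V collagen starts the assembly of type I fibrils. Col5a2 stood at 4.12, 6.19 and 2.32 TPM in FAN1KO and 0.881, 2.90 and 1.69 TPM in wild-type cisplatin kidneys, and at 2.90, 5.68 and 6.67 TPM in FAN1KO and 1.81, 1.59 and 0.516 TPM in wild-type kidneys after saline. The saline groups did not overlap, and the cisplatin groups did. Its log2 differences between genotypes were 0.88 ± 0.39 under cisplatin and 1.39 ± 0.39 after saline (adjusted p = 0.124 and 0.217 by limma). With the Y-linked covariate both passed (adjusted p = 0.00162 and 0.00170). In the 8 libraries without Y-linked RNA they were 0.91 and 1.41, and both passed (adjusted p = 0.0226 and 0.0339). Col5a2 was chosen after its values were seen. Col5a1, with a log2 difference of −0.32 ± 0.51 under cisplatin, was not called (adjusted p = 0.681).

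Among the remaining types, Col27a1 (chr4:63214009-63334991) stood at 34.7, 32.2 and 32.9 TPM in wild-type cisplatin kidneys and at 16.1, 20.4 and 12.0 TPM in FAN1KO cisplatin kidneys. After saline it stood at 18.2, 21.2 and 18.9 TPM in wild-type and 18.2, 16.4 and 18.6 TPM in FAN1KO kidneys. Here the 3 wild-type cisplatin kidneys stood apart, above all 9 others. The log2 difference between genotypes under cisplatin was −1.02 ± 0.16 (SE, adjusted p = 0.00218) by limma. For cisplatin against saline it was 0.75 ± 0.16 in wild-type kidneys (unadjusted p = 0.000706, adjusted p = 0.320) and −0.15 ± 0.16 (SE, adjusted p = 0.472) in FAN1KO kidneys. The latter was 0.053 in the 8 libraries without Y-linked RNA.

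Col26a1 (chr5:136741759-136883376), a little-studied secreted collagen, stood at 12.8, 12.8 and 11.6 TPM in FAN1KO and 2.02, 3.74 and 4.53 TPM in wild-type cisplatin kidneys. After saline it stood at 2.87, 5.85 and 7.35 TPM in FAN1KO and 3.54, 3.71 and 2.60 TPM in wild-type kidneys. The cisplatin groups were far apart and the saline groups overlapped. The log2 difference under cisplatin was 1.64 ± 0.29 (SE, adjusted p = 0.00398) by limma.

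Col17a1 (chr19:47646341-47692042) encodes a transmembrane collagen that anchors skin epithelium to its basement membrane. It stood at 1.49, 1.59 and 1.61 TPM in FAN1KO cisplatin kidneys, from 169 to 194 reads, and at 0.109, 0.442 and 0.388 TPM in wild-type cisplatin kidneys. The saline kidneys held at most 0.203 TPM, and the second FAN1KO saline library had 0 reads. On the log2(TPM + 1) scale the difference between genotypes under cisplatin was 0.97 ± 0.15 (SE, adjusted p = 0.00232) by limma. Col17a1 also passed the filter through FAN1KO cisplatin kidneys alone and had to differ, so this p-value decides nothing. Urothelial markers, of an epithelium that a kidney sample can include, summed to at most 1.63 TPM over 4 genes. The sums were 1.63, 1.23 and 0.855 TPM in FAN1KO and 0.135, 0.663 and 0.423 TPM in wild-type cisplatin kidneys. Most of the FAN1KO sums came from Krt5, a keratin of basal epithelium. Krt5 stood at 1.44, 0.773 and 0.700 TPM in FAN1KO cisplatin kidneys and at most 0.228 TPM elsewhere. What remained for the other genes of the list, Upk1b, Upk2 and Upk3a, overlapped between the cisplatin groups. The part of these genes in the Col17a1 result was not tested.

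**Figure D5:**
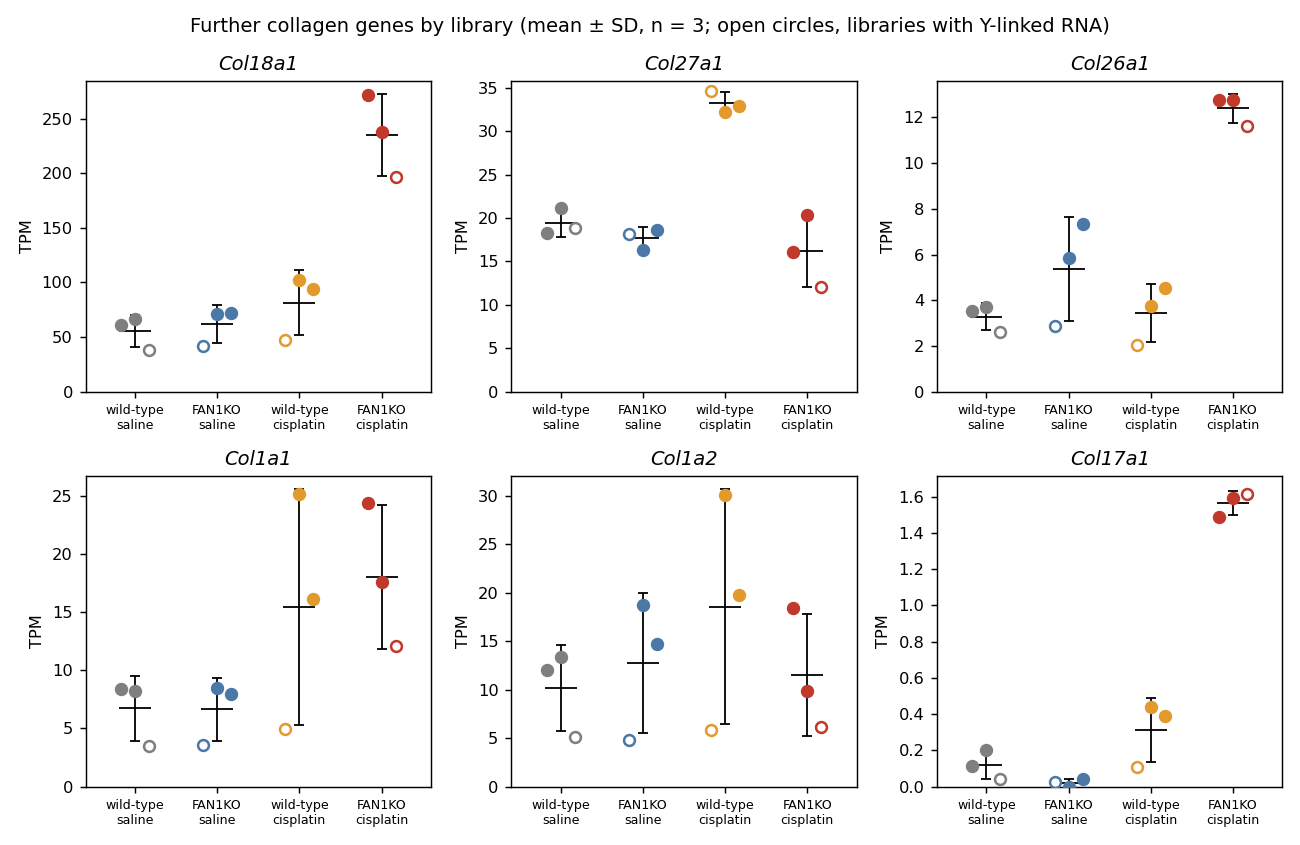
TPM of Col18a1, Col27a1, Col26a1, Col1a1, Col1a2 and Col17a1 in each library, by group, with the mean and SD of 3 libraries; open circles are libraries with Y-linked RNA. Col18a1, Col26a1 and Col17a1 lie highest in FAN1KO cisplatin kidneys, and Col27a1 in wild-type cisplatin kidneys.

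The other chains of high level in this class overlapped between genotypes. Col6a2 stood at 14.2, 7.96 and 4.60 TPM in FAN1KO and 2.70, 18.6 and 10.2 TPM in wild-type cisplatin kidneys, and at 1.80, 6.48 and 6.72 TPM in FAN1KO and 7.57, 10.3 and 2.43 TPM in wild-type kidneys after saline. Col14a1 stood at 8.90, 3.41 and 2.23 TPM in FAN1KO and 3.11, 13.4 and 8.41 TPM in wild-type kidneys under cisplatin, and at 2.69, 10.2 and 13.2 TPM in FAN1KO and 7.88, 8.95 and 2.62 TPM in wild-type kidneys after saline. Their log2 differences under cisplatin were −0.033 ± 0.67 and −0.66 ± 0.65 (adjusted p = 0.977 and 0.486 by limma). The other 9 tested genes of the class, from types VI, VII, VIII, XII, XIII, XVI, XX and XXIII, ran from −0.56 in Col23a1 to 0.52 in Col8a1 with no call, leaving aside Col6a6. In the class of others 2 of 15 genes were called higher and 1 lower, 13.3% and 6.67% beside 19.6% and 4.37% of all genes tested. Of the 2, Col17a1 passed the filter through FAN1KO cisplatin kidneys alone. The median log2 difference was −0.033, beside 0.24 for all genes. In the 8 libraries without Y-linked RNA the differences of Col6a2, Col14a1 and Col23a1 were −0.35, −0.82 and −0.98, none called (adjusted p = 0.425, 0.124 and 0.0566).

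After saline no collagen gene was called between genotypes in either direction by limma, where 0.341% of all genes tested were higher and 0.427% lower. At an unadjusted p under 0.05, 1 of the 29 was higher, Col5a2, and 0 were lower, beside 2.94% and 5.44% of all genes tested. The median log2 difference was −0.049 over the collagen genes and −0.037 over all genes. Among all calls 44.3% were higher, and 54.4% under median-ratio scaling.

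Cisplatin against saline in wild-type kidneys gave no collagen call by limma either, where 0.0601% of all genes tested were higher and 0% lower. At an unadjusted p under 0.05, 1 of the 29 was higher, Col27a1, and 0 were lower, beside 2.55% and 0.448% of all genes tested. All 6 fibrillar genes tested had values above 0, from 0.26 in Col5a3 to 0.93 in Col1a1, where 71.3% of all genes tested lay above 0. None of the 6 had an unadjusted p under 0.05. Their median was 0.51, beside 0.084 for all genes.

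In FAN1KO kidneys 9 collagen genes were higher and 1 lower after cisplatin than after saline by limma. Without Col4a6 and Col17a1, which entered through the FAN1KO cisplatin group, 7 of 27 were higher and 1 lower. The background was 34.9% of all genes tested called higher and 4.9% lower, a split of 87.7% higher among all calls that became 53.3% under median-ratio scaling. This comparison shares its FAN1KO cisplatin libraries with the one between genotypes. Of the 8 basement membrane genes 5 rose, Col4a6 among them, and 1 fell. Col4a1 rose by 1.13 ± 0.27 (SE, adjusted p = 0.00813) and Col4a2 by 0.99 ± 0.29 (SE, adjusted p = 0.0194). Col4a2 lost its call without the first FAN1KO cisplatin, the second FAN1KO cisplatin or the first FAN1KO saline library (adjusted p = 0.0792, 0.0612 and 0.0772). Col4a5 and Col4a6 rose by 0.66 ± 0.17 and 1.13 ± 0.22 (adjusted p = 0.0109 and 0.00300), and Col4a3 changed by −0.98 ± 0.12 (SE, adjusted p = 0.000379). The median over the class, Col4a6 included, was 0.83, beside 0.37 for all genes.

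Outside that class Col17a1 rose by 1.33 ± 0.15 (SE, adjusted p = 0.000266) and Col26a1 by 1.15 ± 0.29 (SE, adjusted p = 0.0113) between saline and cisplatin in FAN1KO kidneys, by limma. Col5a3, a minor type V chain, had 0.69 ± 0.24 (SE, adjusted p = 0.0380) and lost its call without any 1 of the 6 FAN1KO libraries (adjusted p up to 0.0948). Col20a1 had 0.53 ± 0.19 (SE, adjusted p = 0.0438) and lost its call in 8 of the 12 fits that leave 1 library out (adjusted p up to 0.168). Under median-ratio scaling Col4a1, Col4a2 and Col26a1 were called at smaller values, 0.70, 0.56 and 0.76. Col4a5, Col5a3 and Col20a1 had 0.26, 0.47 and 0.20 there and were not called (adjusted p = 0.108, 0.144 and 0.330), and Col4a4 and Col27a1 were called lower (adjusted p = 0.0478 and 0.0457). With no filter on low values, Col11a2 and Col9a3 were called higher as well, at 0.60 and 0.26 (adjusted p = 0.00761 and 0.0234), while Col20a1 was not called.

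The effect of cisplatin was compared between the genotypes by the interaction term, the log2 difference in FAN1KO minus that in wild-type kidneys. By limma it was called above 0 for 1 collagen gene, where 5.22% of all genes tested were, and below 0 for 2, where 1.02% were. The gene above 0 was Col17a1, which passed the filter through FAN1KO cisplatin kidneys alone, and without it and Col4a6 the counts were 0 and 2 of 27. The split among all calls was 83.6% above 0, and 67.0% under median-ratio scaling. Col4a3 had a term of −1.11 ± 0.17 (SE, adjusted p = 0.0111). For Col17a1, an epithelial gene, it was 1.10 ± 0.22 (SE, adjusted p = 0.0206), and the call was lost without the second FAN1KO cisplatin or the first or second wild-type saline library (adjusted p = 0.0550, 0.0556 and 0.0573). For Col27a1 it was −0.90 ± 0.22 (SE, adjusted p = 0.0441), and the call was lost in 10 of the 12 fits that leave 1 library out (adjusted p = 0.0597 to 0.102). Col18a1, Col4a6 and Col4a5 were not called, at 1.44 ± 0.46, 1.15 ± 0.31 and 0.70 ± 0.24 (adjusted p = 0.0834, 0.0536 and 0.10). In the 8 libraries without Y-linked RNA all 3 were called, at 1.20, 1.17 and 0.88 (adjusted p = 0.00559, 0.0245 and 0.0214), while Col27a1 was not (−0.65, adjusted p = 0.0614). With the Y-linked covariate the 3 were called too (adjusted p = 0.000840, 0.00209 and 0.00783). Over all genes, calls above 0 went from 782 to 2004 in those 8 libraries and to 4088 with the covariate. Any call of Col4a6 was favoured by its passing the filter through FAN1KO cisplatin kidneys alone. In the fit of all groups Col4a6 was called without the third FAN1KO cisplatin library (adjusted p = 0.0303).

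Collagen RNA also differed between the 4 libraries with Y-linked RNA and the 8 without it. With the groups in the fit, 19 of the 29 collagen genes were lower by limma in the 4, 65.5% beside 50% of all genes tested, and 2 were higher, 6.9% beside 6.31%. Col6a6, Col7a1 and Col13a1 reached 1 TPM in only the 4 or only the 8, and without them 18 of 26 were lower and 1 higher. The median log2 difference was −0.60 over the 29 and −0.25 over all genes. Col1a2 had −1.42 ± 0.19 (SE, adjusted p = 0.000311), Col6a1 −1.56 ± 0.23 (SE, adjusted p = 0.000450) and Col15a1 −1.46 ± 0.18 (SE, adjusted p = 0.000246). Col4a3 and Col27a1 were not called, at 0.068 and −0.12 (adjusted p = 0.508 and 0.383), while Col4a4 was higher, at 0.26 ± 0.065 (SE, adjusted p = 0.00645). Fibroblast and pericyte markers summed to 12.6 to 20.2 TPM over 6 genes in the 4 libraries and 29.7 to 55.4 TPM in the 8. Endothelial markers summed to 23.6 to 41.8 and 47.4 to 183 TPM over 5 genes. Their part in the collagen values was not tested.

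Col6a6, a long chain of type VI collagen, had the opposite pattern. It stood at 11.4 and 2.82 TPM in the wild-type and FAN1KO saline libraries with Y-linked RNA, and at 14.3 and 1.17 TPM in the cisplatin ones. In the other 8 it lay between 0.0107 and 0.397 TPM, below all 4. It reached 1 TPM in those 4 alone and so had to differ, and its values are given without a test. Col19a1, a minor collagen that was not tested, stood at 1.09, 0.354, 0.993 and 0.0471 TPM in the same 4 libraries and at most 0.0845 TPM in the others, so the last of the 4 did not stand out. Both genes were picked after their values were seen.

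Genes that build and process collagen were counted from lists by role. Of 18 tested genes that modify and fold collagen chains in the endoplasmic reticulum, 3 were higher and 0 lower in FAN1KO than in wild-type kidneys under cisplatin by limma. That is 16.7% higher, near the 19.6% of all genes tested. Colgalt1, which adds galactose to collagen, stood at 40.6, 37.9 and 35.7 TPM in FAN1KO and 16.1, 22.7 and 22.4 TPM in wild-type kidneys, a log2 difference of 0.88 ± 0.17 (SE, adjusted p = 0.00634). P4ha2, a subunit of a prolyl hydroxylase that stabilises the helix, stood at 30.4, 23.3 and 25.8 TPM in FAN1KO and 12.8, 18.8 and 13.2 TPM in wild-type kidneys, a difference of 0.80 ± 0.17 (SE, adjusted p = 0.00861). In both genes every FAN1KO cisplatin kidney lay above every wild-type one. Of 10 tested genes that cleave and cross-link collagen outside the cell none was called, nor was any of 7 genes for small proteoglycans of fibrils and fibronectin. At an unadjusted p under 0.05, 5 of the 18 were higher and 1 lower, 1 of the 10 was higher and 1 of the 7 lower, beside 31.1% and 6.94% of all genes tested. The medians of the 3 lists were 0.23, 0.11 and −0.37, beside 0.24 for all genes.

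Receptors of collagen and its partners in the basement membrane were counted in the same comparison. Of 6 tested collagen receptors 4 were higher by limma, Ddr1, Itga1, Itgb1 and Lair1, and 0 lower, beside 19.6% and 4.37% of all genes tested, with a median log2 difference of 0.81. Lair1, a receptor of leukocytes, reached 1 TPM in FAN1KO cisplatin kidneys alone, and without it 3 of 5 were higher. The 5 macrophage markers summed to 97.4 to 266 TPM in FAN1KO and 40.3 to 103 TPM in wild-type cisplatin kidneys, 1 of them was called higher, and their part in the receptor values was not tested. Ddr1, a receptor kinase for collagen found on epithelia, stood at 210, 190 and 166 TPM in FAN1KO and 63.7, 82.7 and 91.0 TPM in wild-type cisplatin kidneys, a difference of 1.25 ± 0.14 (SE, adjusted p = 0.000472). Itga1, an integrin subunit that binds type IV collagen, stood at 26.1, 21.2 and 24.6 TPM in FAN1KO and 7.67, 15.3 and 13.3 TPM in wild-type kidneys, a difference of 0.98 ± 0.30 (SE, adjusted p = 0.0373). Of 15 basement membrane partners 4, or 26.7%, were higher, among them Lama5, Lamb3 and Agrn, and 0 lower, with a median of 0.47. Lamb3, a chain of an epithelial laminin, stood at 11.6, 5.21 and 7.89 TPM in FAN1KO and 1.08, 0.816 and 0.968 TPM in wild-type kidneys, a difference of 2.18 ± 0.24 (SE, adjusted p = 0.000446). It reached 1 TPM in only 1 library outside FAN1KO cisplatin kidneys, so it too was tested through the group in which it was high, and without it 3 of 14 partners were higher. In these 3 genes every FAN1KO cisplatin kidney lay above every wild-type cisplatin kidney. After saline, and between cisplatin and saline in wild-type kidneys, no gene of the 5 lists was called.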

How the data were processed

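Whole-kidney RNA-seq of 12 libraries was deposited as 1 table of TPM values, which the authors made per gene without stated scaling between libraries. The submitters' processing notes name the build mm10 and limma. The aligner, the counter and their settings are not given in the sources used here. Low values stepped in whole reads, so reads were recovered for 22557 of 22557 genes above 0 (within 0.05 of a whole number), giving the depth per library.

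Genes with at least 1 TPM in at least 3 libraries were tested with limma 3.58.1 (R 4.3.3) on log2(TPM + 1), with 4 group means, a mean-variance trend and Benjamini-Hochberg adjustment over all 14972 genes, at an adjusted p under 0.05. A fold change on this scale understates the change of low genes. The fit was tested on simulated data. Tables and figures were made in Python 3.11.15 (pandas 2.3.3, numpy 2.4.6) and drawn with matplotlib 3.10.9.

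Values per library were given for the 3 chains of highest mean in each class, the chains called between genotypes under cisplatin and all of type IV, and for up to 2 called genes of each pathway list. Col5a2, Col6a6, Col15a1 and Col19a1 were added after their values were seen. The collagen genes and lists were chosen with earlier results of these data known. Alternatives were a pseudocount of 0.1, no filter, median-ratio scaling, voom on recovered reads, no trend, a replicate block, a Y-linked covariate (mean of Ddx3y, Eif2s3y, Kdm5d and Uty), only the groups compared, and each library left out. The fit of 8 libraries without Y-linked RNA was chosen after seeing the data. Coding sequences came from GENCODE and promoters, matched for 35 of 44 genes, from RefSeq, both on GRCm38. Some items are not reported here.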

Additional observations from a re-analysis of the deposited data

Results flagged for a closer look

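The effect of cisplatin differed between the genotypes by the interaction term of limma for 3 collagen genes. For Col4a3 the log2 effect in FAN1KO minus that in wild-type kidneys was −1.11, for Col17a1 1.10 and for Col27a1 −0.90. Col17a1 passed the filter on low values through the FAN1KO cisplatin kidneys alone, so its selection favoured this difference. The Col4a3 call was kept in all 12 fits that leave 1 library out, and those of Col17a1 and Col27a1 were lost in 3 and 10 of them.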

How the results depend on the processing

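With the Y-linked covariate, collagen genes higher in FAN1KO kidneys went under cisplatin from 5 to 8, and all genes higher from 2931 to 6035 of 14972. Col4a4 was added to the lower collagen genes, and all genes lower went from 654 to 1288. After saline the higher count went from 0 to 1, and from 51 to 173 over all genes. After cisplatin in FAN1KO kidneys higher calls went from 9 to 14 and lower ones from 1 to 2. Over all genes these went from 5229 to 7919 and from 733 to 1222. The higher collagen genes added were Col1a1, Col3a1, Col6a2, Col7a1 and Col15a1, while Col1a2 was not called, at −0.035. Interaction terms above 0 went from 1 to 7, beside 782 to 4088 over all genes, and Col4a4 was added to those below 0. The 8 libraries without Y-linked RNA gave 8 higher and 4 lower between genotypes under cisplatin, beside 4328 and 1162 of all 14972 genes tested. They gave 1 higher after saline, beside 117 of all genes, and 4 above and 1 below 0 in the interaction, beside 2004 and 434. Median-ratio scaling gave 3 lower after cisplatin in FAN1KO kidneys, beside 2047 of all genes. In the interaction 2 genes were above 0 with no filter or no trend, and 1 in place of 2 was below 0 with a pseudocount of 0.1, no filter, no trend or the replicate block. Leaving out 1 library gave 5 to 7 higher and 2 to 3 lower between genotypes under cisplatin, beside 1169 to 3144 and 370 to 694 of all genes. It gave 6 to 10 higher and 1 to 1 lower after cisplatin in FAN1KO kidneys, beside 3140 to 5607 and 482 to 786. In the interaction 0 to 2 were above and 1 to 2 below 0, beside 217 to 981 and 51 to 216. The causes were not tested. Among the 15 collagen genes that the rule for values per library names, no value called in either setting changed sign, and 68 values called in neither did.

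Same-numbered libraries correlated at −0.243 to −0.144 on average, with single values from −0.606 to 0.60, and others at 0.0806 to 0.139. With 3 libraries a group these values cannot decide whether replicate numbers pair the samples. With the replicate block 5 collagen genes were higher and 2 lower between genotypes under cisplatin, beside 2376 and 580 of all genes. After cisplatin in FAN1KO kidneys 8 were higher and 1 lower, beside 4798 and 672.

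With 3 libraries a group, log2 differences of fibrillar genes had standard errors up to 0.68 (Col3a1). Low genes such as Col17a1 rested on few reads. TPM are shares of each library.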
